A study of Homo sapiens with 12 samples.

Results

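Antisense RNAs are transcripts annotated on the strand opposite to another gene. The RNAs described here were the rows of the deposited count table whose RNA type begins with "antisense" and whose counts, summed over all libraries, reached 500, with hosts of small nucleolar RNAs (the SNHG genes and ZFAS1) left out by name. This gave 131 antisense RNAs out of 5525 antisense-type rows and 58233 rows in all, and 4 rows past that sum were left out by name. The summed count chose them, so that they were well expressed is no result. It ran from 502 to 16505 with a median of 960. KCNQ1OT1 (502 counts), FAM222A-AS1 (504) and RP5-1136G13.2 (511) lay just inside the threshold, and RP11-443B20.1 (497), MAN1B1-AS1 (491) and RP11-521B24.3 (489) just outside. Of the antisense-type rows, 2557 had no count in any library. All 131 RNAs passed the filter on low counts of the fit across genes (at least 10 counts, set by group), and so did 528 antisense-type rows in total.

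An antisense RNA can start close to the promoter of its sense gene and run away from it (head-to-head), overlap its end (tail-to-tail), or lie within it. Some act in cis on neighbouring genes, as KCNQ1OT1 does at an imprinted locus, others work elsewhere in the cell as spliced and polyadenylated RNAs, and many are short-lived nuclear transcripts that the RNA exosome removes. Because both strands are transcribed from the same stretch of DNA, an antisense RNA and its sense partner can change together, apart, or in opposite directions.

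The libraries came from HCT116 cells, a human colorectal carcinoma line. Parental HCT116 Tet-OsTIR1 cells carry the plant F-box protein OsTIR1 under a tetracycline-inducible promoter, and SDS22-degron cells are a line derived from them by isolating colonies, in which the endogenous alleles of PPP1R7, the gene of the protein phosphatase 1 regulator SDS22, carry mAID-mClover. Doxycycline (Dox) turns OsTIR1 on, and the auxin IAA then lets it mark the tagged protein for degradation. There were 4 groups of 3 libraries, labelled as biological replicates: parental untreated, parental with 2 µg/ml Dox and 500 µM IAA for 48 h, SDS22-degron untreated, and SDS22-degron with the same agents for the same time. Both lines carry the OsTIR1 transgene, and the tag is present in untreated SDS22-degron cells too. Since the degron line goes back to colonies picked from the edited cells, the tag and the history of the line cannot be told apart. Nothing in the labels says which libraries came from separate cultures, so p-values measure the spread between these libraries.

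Between 12133915 and 14657508 counts fell on genes in each library. No library stood apart from its group, with the standard deviation (SD) of log2 differences from the other 2 libraries between 0.219 and 0.305. The epithelial markers EPCAM, KRT8, KRT18, CDH1 and CLDN4 were present in every library, CEACAM5 stayed at or under 0.239 counts per 1000000 counts, and of the markers of fibroblasts, leukocytes and endothelium COL1A1 was at 9.58 to 32.7 while all others were at or under 0.0824. On Dox/IAA, CDH1 changed by 1.00, CLDN4 by 0.81 and COL1A1 by 0.94 on the log2 scale in SDS22-degron cells, and CDH1 by 0.36 and COL1A1 by 0.81 in parental cells, while KRT8 and KRT18 fell by 0.33 and 0.29 in SDS22-degron cells and by 0.39 and 0.47 in parental cells (all called by edgeR). The part of these differences in the results was not tested. The PPP1R7 transcript, whose protein product the degron targets, had a log2 fold change of 0.12 ± 0.09 (SE, adjusted p = 0.265, edgeR) on Dox/IAA in SDS22-degron cells. All tested genes of chromosomes 16 and 3 had median log2 differences of -0.31 and -0.26 between the treated lines and -0.30 and -0.27 between the untreated lines. Medians on the other chromosomes lay between -0.13 and 0.11 in both, and no chromosome median was past 0.1 in size in either Dox/IAA comparison.

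A sense partner was found for 124 of the 131 RNAs as the opposite-strand row that shares the most bases, with protein-coding genes preferred. In 123 cases it was protein-coding, and 46 RNAs overlapped several opposite-strand rows. For 17 RNAs an opposite-strand row other than the partner had the most counts. DLGAP1 and BCAN each had 2 antisense RNAs among the 131, which leaves 122 distinct partners. By the positions in the table, 40 pairs were head-to-head, 28 of them with starts within 1000 bases, 39 were tail-to-tail, in 33 the antisense RNA lay inside the sense gene and in 12 the sense gene lay inside the antisense RNA. The antisense RNAs had a median length of 2974 bases, and 23 had a single exon. Their median GC content was 49.5%, against 48.1% for all tested genes.

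The sequences at the starts of RNAs that carry the main differences are shown first, since several of these RNAs share a start region with their partner or lie next to GC-rich elements. Promoters are those of RefSeq on GRCh38.p14, from 250 bases before to 50 bases after the start, written 5′ to 3′ on the strand of the antisense RNA. Capitals mark GGGCGG or its reverse complement CCGCCC, the core of the GC box bound by SP1-type factors, searched on both strands with overlaps counted. Of the 131 RNAs, 51 were found in this table of 35116 promoters, of which 45.0% held at least 1 match. The promoter of VPS9D1-AS1 (chr16:89711606-89711905, plus strand) held 5 matches, a number that 5.14% of all promoters reached. That of NR2F1-AS1 (chr5:93585540-93585839, minus strand) held 2, as 26.7% did.
VPS9D1-AS1 promoter: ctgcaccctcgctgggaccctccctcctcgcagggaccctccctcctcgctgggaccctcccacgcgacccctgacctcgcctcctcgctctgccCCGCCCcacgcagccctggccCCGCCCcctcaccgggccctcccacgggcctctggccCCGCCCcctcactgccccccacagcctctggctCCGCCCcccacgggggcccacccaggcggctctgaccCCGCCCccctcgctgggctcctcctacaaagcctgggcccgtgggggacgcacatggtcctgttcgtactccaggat
NR2F1-AS1 promoter: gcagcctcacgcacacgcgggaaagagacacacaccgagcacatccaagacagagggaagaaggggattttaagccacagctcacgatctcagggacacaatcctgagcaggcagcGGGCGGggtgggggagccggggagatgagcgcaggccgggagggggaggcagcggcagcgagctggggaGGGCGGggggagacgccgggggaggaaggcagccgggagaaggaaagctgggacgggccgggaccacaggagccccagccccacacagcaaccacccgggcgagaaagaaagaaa

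KTN1-AS1 and KTN1, the gene of the endoplasmic reticulum protein kinectin, have RefSeq starts that lie back to back, and the stretch between them (chr14:55580093-55580206, plus strand) is 114 bases long. By the positions of the counted table, which take in more distant starts of KTN1, the genes overlap by 21039 bases. It held 3 overlapping matches, and 33.3% of stretches of that length before a start held at least 1.
KTN1-AS1 and KTN1, between the starts: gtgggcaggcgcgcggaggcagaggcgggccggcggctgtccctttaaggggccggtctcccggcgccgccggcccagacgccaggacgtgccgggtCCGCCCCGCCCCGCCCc

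DLEU2, the RNA deleted in a common form of lymphocytic leukaemia, is the host of the microRNAs miR-15a and miR-16-1, which share the seed in capitals (bases 2 to 8). Both lie inside DLEU2 on the minus strand of chromosome 13 (chr13:50049167-50049188 and chr13:50049027-50049048). The rows MIR15A and MIR16-1 had a count of 0, and mature microRNAs are not captured by poly-A selection, so only the host transcript was measured.
hsa-miR-15a-5p: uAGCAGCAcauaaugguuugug
hsa-miR-16-5p: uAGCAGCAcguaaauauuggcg

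Together the 131 RNAs took 0.145% of all counts, and between 0.130% and 0.155% in single libraries. Levels below are CPM (counts per 1000000 counts of the library, with its size adjusted by TMM), and comparisons of level between genes are per kilobase of transcript. The median RNA was at 6.21 CPM and 2.67 CPM per kb. In counts, 42 RNAs were above their partner, 46 were at 10 to 100% of it, 27 at 1 to 10%, 5 under 1%, and 4 had a partner without any count (UBA6-AS1, KCNMB2-AS1, CKMT2-AS1 and BAALC-AS1). UBA6-AS1, CKMT2-AS1 and BAALC-AS1 also overlapped opposite-strand rows that had counts. Per kilobase, 55 were above their partner.

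The 8 RNAs with the most counts differed widely per kilobase. RP11-284F21.10, a single-exon RNA inside BCAN (brevican, a matrix protein of the brain), was the highest of them at 26.7 CPM per kb over all libraries, and VPS9D1-AS1 followed at 23. FGD5-AS1 was at 20.8, TUG1 at 10.4 and THAP9-AS1 at 10.2 CPM per kb. GABPB1-AS1, PSMA3-AS1 and HCG18 were the lowest at 3.51, 3.49 and 2.33. Several of these had partners with few counts: FGD5 had 9 counts in all libraries together against 16505 for FGD5-AS1, BCAN had 56 against 13311 for RP11-284F21.10, and the opposite-strand row inside TUG1 had 1 against 10971. FGD5-AS1 also overlaps NR2C2 on the opposite strand, which had more counts than FGD5. THAP9-AS1 and PSMA3-AS1 overlap SEC31A and C14orf37, respectively, on their own strand, and counts there may be split between the genes.

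The sources used here do not state whether reads were counted by strand, and without that, reads of a gene and of its antisense partner cannot be told apart. Some rows of the table bear on this. In GENCODE v44, some antisense-type rows have at least 95% of their exon bases inside opposite-strand exons. Of these, 150 overlap an opposite gene with at least 10000 counts, to which those exons need not all belong. Among the 150, 132 had a count. Over the 150 rows the median count was 0.0328% of that gene's, and the highest 0.967%. Counting that ignored strand and kept reads on several genes would give such rows a share in keeping with the sense exons they lie in, and counting that dropped those reads would leave a row wholly inside them without counts. RP11-96D1.11, RP11-138I1.4, RP5-940J5.9 and RP11-290D2.6, all with their exons wholly inside opposite-strand exons, had 1309, 540, 1795 and 2184 counts. The annotation used for counting may differ from GENCODE v44.

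Among the 131 RNAs, 5 were at under 1% of their partner. These were RP11-983P16.4 opposite EIF4B at 0.775%, RP11-290D2.6 opposite TPT1 at 0.766% (0.675 to 0.941% over the libraries), RP11-290L1.3 opposite PHLDA1 at 0.545%, RP5-940J5.9 opposite GAPDH at 0.417% and RP11-138I1.4 opposite UBB at 0.371%. In all but RP11-983P16.4 at least 95% of the exon bases lay inside opposite exons. The log2 ratio to the partner was not called in any of the 5 comparisons for these 5 pairs, with differences between -0.45 and 0.53. Those 4 are themselves among the 150 rows and lie above their median. Whether stray reads of the abundant partner reached these RNAs was not tested.

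Of the 5 comparisons, those that involve the same group share its libraries, so their values are given side by side and are not independent. Changes were tested with edgeR's quasi-likelihood test over all 16657 tested genes, and a gene was called at a Benjamini-Hochberg adjusted p under 0.05. Between the treated lines, the comparison that sets cells with degraded SDS22 against cells that received the same agents, 20 RNAs were higher and 30 lower in SDS22-degron cells, or 38.2% of the 131, with 44.9% called among all tested genes (21.8% higher, 23.1% lower). The median log2 fold change of the 131 was -0.05, against -0.01 for all genes. For 53 RNAs the libraries of the groups did not overlap (40.5%, with 52.9% among all genes). In bulk RNA, fewer cells that express a gene and less of its RNA per cell cannot be told apart. Without treated SDS22-degron replicate 2, 13 RNAs were higher.

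VPS9D1-AS1 (ENSG00000261373, chromosome 16, 89711856 to 89718165), described as a MYC target in colon cancer cells, had the smallest p. It was at 52.7, 42.3 and 42.3 CPM in treated parental cells and at 14.6, 14.6 and 12.8 CPM in treated degron cells. The groups were far apart and the log2 fold change was -1.71 ± 0.10 (SE, adjusted p = 6.53e-10, edgeR). VPS9D1, the gene around it, was at 8.77, 7.66 and 9.91 CPM in treated parental and at 7.78, 11.4 and 9.80 CPM in treated degron cells, which overlap (log2 fold change 0.14, adjusted p = 0.537).

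**Figure D1:**
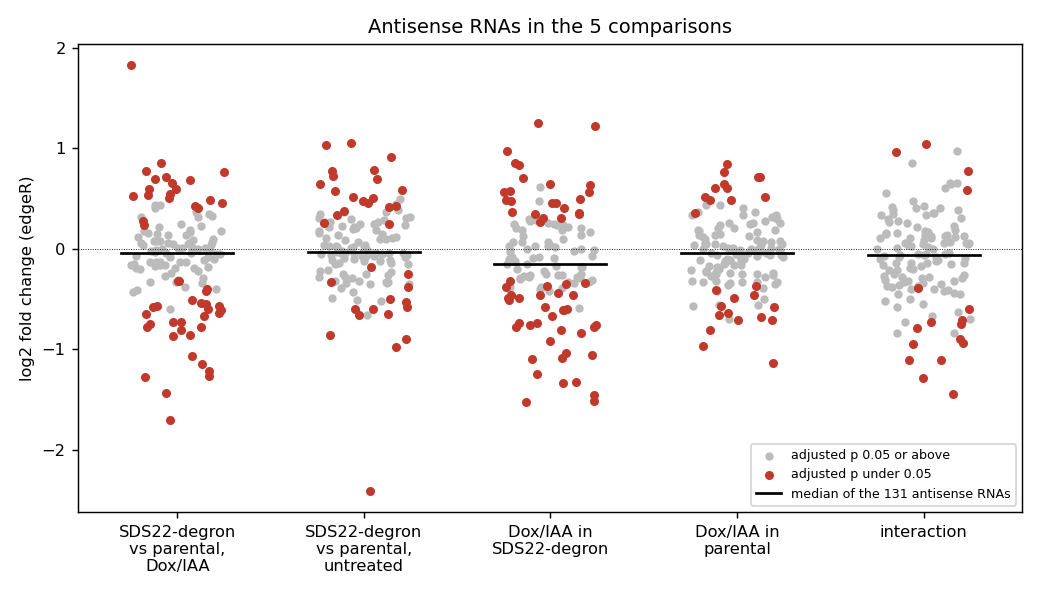
Log2 fold change (y axis) of each of the 131 antisense RNAs (points) in the 5 comparisons (x axis), in red where the adjusted p of edgeR was under 0.05, with the median as a line. Medians lie between -0.15 and -0.04, and VPS9D1-AS1 is the lowest point between the treated lines at -1.71.

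Other RNAs were lower by more than 2-fold. DLEU2 was at 7.5, 12.8 and 6.37 CPM in treated parental and at 3.43, 4.03 and 3.62 CPM in treated degron cells (log2 fold change -1.26 ± 0.24, SE, adjusted p = 0.000274, edgeR). The treated parental libraries scattered, with replicate 2 the highest, but none reached down to the SDS22-degron libraries. TMPO-AS1, which starts opposite the gene of the nuclear lamina protein LAP2, was at 6.56 ± 1.37 against 2.95 ± 0.276 CPM (SD, n = 3; log2 fold change -1.14). Further calls past 2-fold were RP11-277P12.20 (-1.44), THUMPD3-AS1 (-1.27), RP4-694A7.2 (-1.22) and MMP25-AS1 (-1.07), of which the last 3 were named after their values were seen. THUMPD3-AS1 and MMP25-AS1 lie on chromosomes 3 and 16, whose medians were lowered as given above, and THUMPD3-AS1 overlaps SRGAP3 on its own strand.

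Smaller decreases were tight. RP11-284F21.10 was at 101, 96.1 and 101 CPM in treated parental and at 59.6, 68.5 and 62.4 CPM in treated degron cells (log2 fold change -0.64 ± 0.08, SE, adjusted p = 2.41e-06, edgeR). RP11-284F21.7, which overlaps the end of BCAN, changed by -0.75 ± 0.10, so both antisense RNAs of this nearly silent gene were lower. CTBP1-AS2, head-to-head with the gene of the corepressor CtBP1, was at 25.1 ± 0.589 against 15.8 ± 0.867 CPM (SD, n = 3), a log2 fold change of -0.67, while CTBP1 changed by -0.15 (adjusted p = 0.0628). FGD5-AS1, the RNA with the most counts, was at 118 ± 1.70 against 94.1 ± 3.69 CPM (log2 fold change -0.32, adjusted p = 0.000496) and lies on chromosome 3.

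Among the RNAs that were higher, RP11-115D19.1 stood out. It was at 2.92, 3.08 and 3.93 CPM in treated parental and at 11.2, 13.3 and 10.7 CPM in treated degron cells (log2 fold change 1.83 ± 0.16, SE, adjusted p = 5.96e-08, edgeR). HOXA10-AS, in the HOXA cluster of developmental regulators, was at 17.2 ± 1.89 against 31.1 ± 3.94 CPM (log2 fold change 0.85), and its partner HOXA9 was higher by 0.72. Of the exon bases of HOXA10-AS, 62.3% lie inside opposite-strand exons. CTD-2396E7.11, opposite DENND1C (39 counts in all), was higher by 0.77. TUG1 was at 69.5 ± 7.11 against 81.8 ± 7.17 CPM, and the groups overlapped (log2 fold change 0.24, adjusted p = 0.0292). This call was lost without treated parental replicate 1 (0.20) or 3 (0.18) or treated SDS22-degron replicate 2 (0.17).

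GABPB1-AS1, head-to-head with the gene of a subunit of the transcription factor GABP, had the largest scatter of the abundant RNAs. It was at 56.9, 80.9 and 64.5 CPM in treated parental and at 33.4, 64.0 and 38.5 CPM in treated degron cells. Replicate 2 was the highest in both, and the groups overlapped. Its log2 fold change of -0.57 (adjusted p = 0.0113) was not called without treated parental replicate 2 (-0.40) or without treated SDS22-degron replicate 1 (-0.39) or 3 (-0.47), nor by DESeq2.

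The untreated lines are compared to see what differed without any agent. In untreated SDS22-degron cells 20 were higher and 15 lower than in untreated parental cells, or 26.7%, with 28.2% called among all genes (13.2% higher, 15% lower), and the median was -0.04. Without untreated SDS22-degron replicate 1, 2 or 3, 13 were higher, and without untreated parental replicate 1, 9 were lower. The libraries of 49 RNAs did not overlap (37.4%, with 43.5% among all genes). RP11-277P12.20, which lies opposite the natural killer receptor gene KLRC4-KLRK1 (8 counts in all), was at 10.9, 7.43 and 11.9 CPM in untreated parental cells and at 1.75, 1.86 and 2.05 CPM in untreated SDS22-degron cells. All parental libraries were above all degron libraries, and the log2 fold change was -2.41 ± 0.33 (SE, adjusted p = 2.63e-05, edgeR). On Dox/IAA it stayed at 2.28 ± 0.194 CPM (SD, n = 3) in SDS22-degron cells.

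NR2F1-AS1, head-to-head with the gene of the orphan nuclear receptor COUP-TF1, was at 30.1, 21 and 27.5 CPM in untreated parental and at 11.5, 13.3 and 14.9 CPM in untreated SDS22-degron cells (log2 fold change -0.98 ± 0.15, SE, adjusted p = 0.00011, edgeR). NR2F1 itself was at 251 ± 61.0 against 107 ± 13 CPM (SD, n = 3), so that both genes of the pair were lower in the degron line without any agent. VPS9D1-AS1 was already lower there by a log2 fold change of -0.60, at 60.9 ± 3.35 against 40.2 ± 0.519 CPM. The median of all tested genes of chromosome 16 was -0.30 in this comparison, and its part in the difference was not tested. PINK1-AS changed by -0.60 as well, while PINK1, the gene of a kinase of mitochondrial quality control, was at -0.16 (adjusted p = 0.293). The ratio of the pair was not called there (-0.43, adjusted p = 0.0820, limma), but was called with replicate as a block (-0.43) and without untreated parental replicate 3 (-0.56) or treated parental replicate 2 (-0.43). PINK1-AS overlaps DDOST on its own strand. RP11-115D19.1 (1.06), RP11-379H18.1 (0.69) and SBF2-AS1 (0.64) were higher in the degron line.

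On Dox/IAA in SDS22-degron cells 24 RNAs were higher and 36 lower, or 45.8%, against 51.5% called among all genes (26.0% higher, 25.5% lower). Their median of -0.15 lay below that of all genes (0.00). The libraries of 75 did not overlap (57.3%, with 59.9% among all genes). Without untreated SDS22-degron replicate 1, 16 were higher. VPS9D1-AS1 fell from 39.7, 40.2 and 40.8 CPM to the 14.6, 14.6 and 12.8 CPM given above (log2 fold change -1.52 ± 0.10, SE, adjusted p = 2.05e-09, edgeR). DLEU2 fell from 11, 10.5 and 8.88 CPM (log2 fold change -1.46), while DLEU1, its head-to-head partner, was at 7.71 ± 0.377 and then at 6.23 ± 0.329 CPM (SD, n = 3; log2 fold change -0.31, adjusted p = 0.0823). The untreated and treated libraries did not overlap for either gene.

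**Figure D2:**
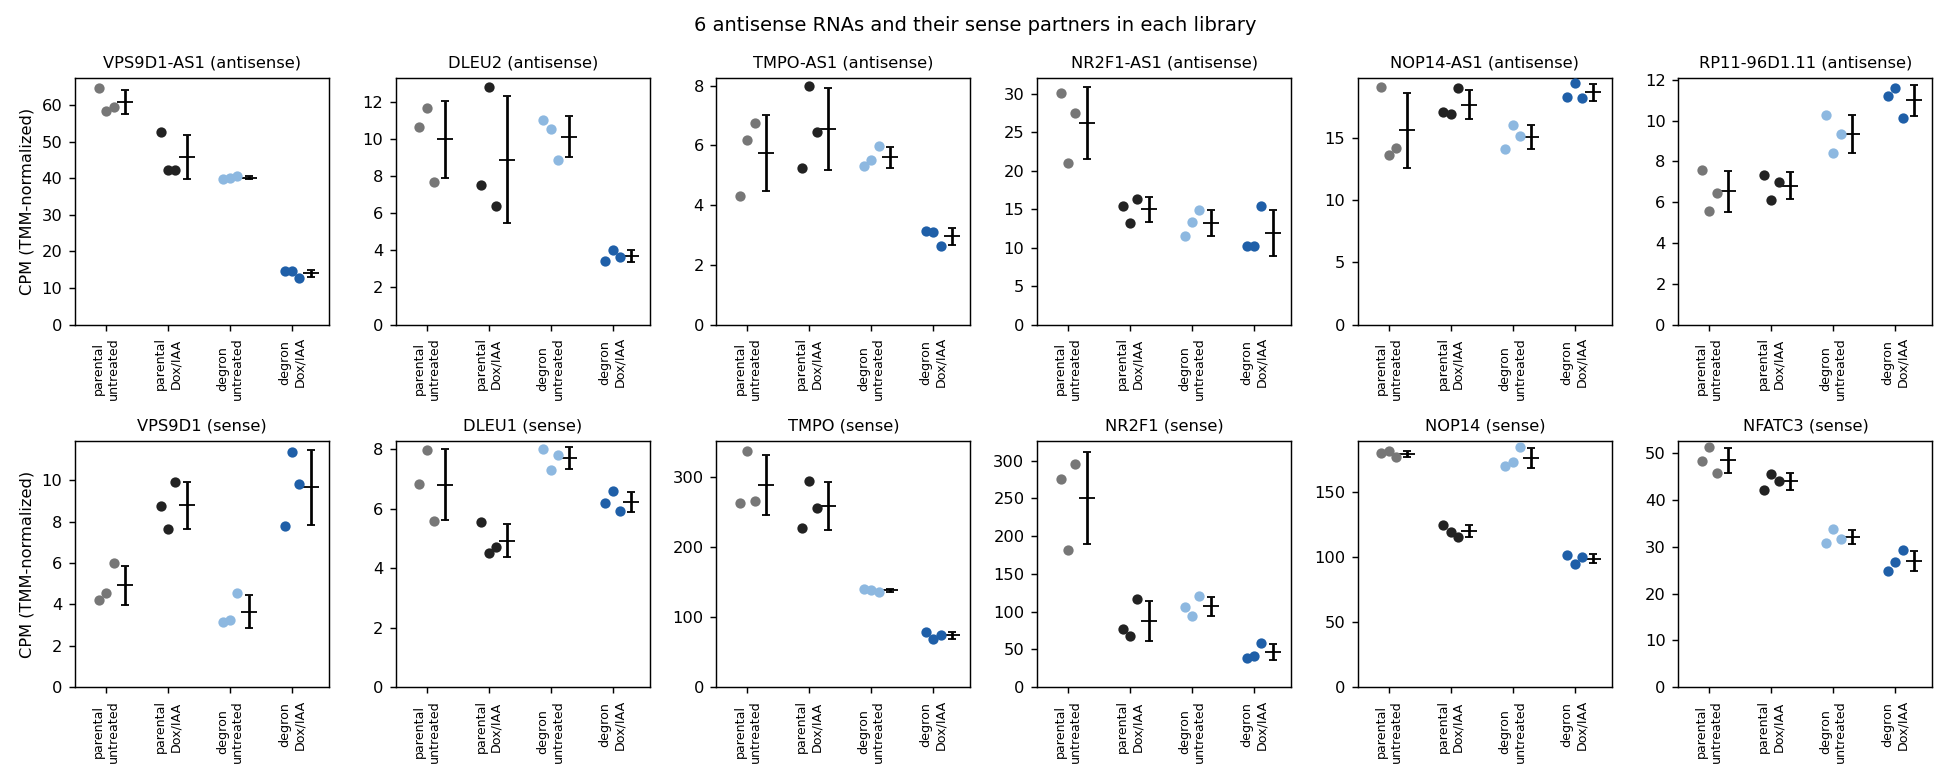
CPM (y axis) of 6 antisense RNAs (top) and their sense partners (bottom) in each of the 12 libraries (points, by group on the x axis, where degron stands for SDS22-degron), with mean and SD of 3 libraries. VPS9D1-AS1 drops to 14 CPM in treated degron cells while VPS9D1 rises to 9.65, and NR2F1-AS1 and NR2F1 are both highest in untreated parental cells.

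CASC8, in the cancer risk region near MYC, was at 8.66 ± 0.813 CPM in untreated and at 3.01 ± 0.251 CPM in treated degron cells (SD, n = 3; log2 fold change -1.52 ± 0.17, SE, adjusted p = 6.3e-07, edgeR). AC005329.7, at the end of the complex I gene NDUFS7, went from 6.78 ± 0.130 to 2.70 ± 0.157 CPM (-1.33), and NDUFS7 from 42.3 ± 3.77 to 30.5 ± 1.51 CPM (-0.47). Of the exon bases of AC005329.7, 75.4% lie inside opposite-strand exons, and whether reads of NDUFS7 reached it was not tested. TMEM147-AS1, whose partner by position, GAPDHS, had 1 count, went from 22.7 ± 2.19 to 10.7 ± 2.06 CPM (-1.08). It also overlaps TMEM147 on the opposite strand, which had more counts than GAPDHS. KTN1-AS1, named after its values were seen, went from 5.69 ± 0.844 to 2.67 ± 0.294 CPM (-1.09), whereas KTN1 across the short stretch printed above was at 220 ± 6.17 and 196 ± 9.33 CPM (-0.16, adjusted p = 0.0311).

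In the other direction, KCNMB2-AS1, opposite a potassium channel subunit gene without counts, rose from 3.63 ± 1.27 to 8.69 ± 0.794 CPM (SD, n = 3; log2 fold change 1.25 ± 0.19, SE, adjusted p = 2.23e-05, edgeR). PAXIP1-AS2 rose from 2.55, 1.17 and 2.73 CPM to 4.88, 5.19 and 4.86 CPM (log2 fold change 1.22), and PAXIP1, the gene of a DNA damage response adaptor, fell from 52.5 ± 1.92 to 33.3 ± 3.21 CPM (-0.66). CTD-2396E7.11 rose by 0.83. Of the 7 RNAs without an opposite-strand row in the table, 4 were called lower and 0 higher. Among all genes 25.5% were lower and 26.0% higher, and 7 RNAs are too few to set against these shares. The 4 were RP11-132A1.4 (-0.78), MAFG-AS1 (-0.76), RP11-613M10.6 (-0.74) and MINCR (-0.49). The MINCR call was lost without untreated replicate 2 (-0.43) or treated replicate 1 (-0.48) or 3 (-0.40). RP11-295G20.2 and AC093673.5 were not called, nor was OTUD6B-AS1, at 22.4 ± 0.440 and 25.8 ± 2.13 CPM (0.20, adjusted p = 0.0880).

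The same agents in parental cells, which have no tagged SDS22, changed 12 RNAs upward and 14 downward. This was 19.8% of the 131, with 31.6% called among all genes (15.9% higher, 15.7% lower), and their median was -0.04. The libraries of 40 did not overlap (30.5%, with 41.3% among all genes). Without untreated parental replicate 2, 6 were higher. CASC8 fell from 6.75, 5.63 and 6.59 CPM to 3.67, 2.37 and 2.52 CPM (log2 fold change -1.14 ± 0.18, SE, adjusted p = 0.000126, edgeR). NR2F1-AS1 fell by 0.81 on the log2 scale, to 14.9 ± 1.59 CPM (SD, n = 3), and NR2F1 by 1.53, from 251 ± 61.0 to 87.2 ± 26.6 CPM. RP11-660L16.2, inside DHCR7, the gene of the last enzyme of cholesterol synthesis, fell by 0.71, TMEM147-AS1 by 0.64 and RP11-132A1.4 by 0.66. RP11-115C21.2, head-to-head with the microcephaly gene MCPH1, rose from 4.68 ± 0.390 to 8.41 ± 0.724 CPM (0.85 ± 0.17). RP11-277P12.20 was at 10.1 ± 2.33 and 6.17 ± 3.34 CPM (-0.70, adjusted p = 0.0586), and it was called with replicate as a block (-0.73) and without untreated parental replicate 2 (-0.88) or treated parental replicate 1 (-0.86) or 3 (-1.01).

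The interaction asks whether Dox/IAA changed an RNA differently in the 2 lines. It was called for 17 RNAs, 4 of them with a more positive change in SDS22-degron cells and 13 with a more negative one. This was 13%, against 14.4% among all genes (6.03% and 8.35%). Without treated parental replicate 2 there were 2 and 7, without untreated parental replicate 1 there were 2 more positive, and without untreated SDS22-degron replicate 1 there were 8 more negative. VPS9D1-AS1 led with an interaction of -1.11 ± 0.13 (SE, adjusted p = 3.97e-05, edgeR), made of changes of -1.52 in SDS22-degron and -0.41 in parental cells. For DLEU2 these were -1.46 and -0.17 (interaction -1.28 ± 0.31, adjusted p = 0.00923), and for TMPO-AS1 -0.92 and 0.18 (-1.10 ± 0.27, adjusted p = 0.00962). The DLEU2 interaction was -0.92 without treated parental replicate 2 and was still called.

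CTBP1-AS2 changed by -0.46 and 0.14 (interaction -0.60). RP11-644F5.11, which overlaps the start of the tetraspanin gene CD63, stood at 3.51 ± 0.193 and 5.32 ± 0.130 CPM in untreated and treated parental cells and at 6.01 ± 0.383 and 4.75 ± 0.874 CPM in the SDS22-degron line (SD, n = 3; interaction -0.94 ± 0.22, SE, adjusted p = 0.00825, edgeR). FAM201A had the opposite pattern, at 5.53 ± 0.694 and 4.39 ± 0.803 CPM against 2.96 ± 0.200 and 4.61 ± 0.165 CPM (interaction 0.96). FAM201A and its partner ANKRD18A belong to families with near-identical copies, so counts there are uncertain. HOXA10-AS had an interaction of 0.59, with HOXA9 at 0.67, and the HOXA10-AS call was lost without treated SDS22-degron replicate 3 (0.47).

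Whether an antisense RNA and its partner changed by unequal amounts was tested directly, as the per-library difference of their log2 CPM in limma, fitted over all 2752 opposite-strand pairs of tested genes. Both genes were tested in 93 of the 124 pairs. The ratio differed between the treated lines in 32 pairs (34.4%, with 37.6% among all opposite-strand pairs), between the untreated lines in 14 (15.1%, with 14.3%), on Dox/IAA in SDS22-degron cells in 42 (45.2%, with 47.2%), on Dox/IAA in parental cells in 16 (17.2%, with 22.7%) and in the interaction in 11 (11.8%, with 13.2%). In SDS22-degron cells on Dox/IAA, the antisense RNA lost ground to its partner in 28 of the 42 and gained in 14. In parental cells it lost in 10 and gained in 6, and in the interaction the ratio was lower in 8 and higher in 3. Between the treated lines it was lower in 15 and higher in 17, and between the untreated lines lower in 3 and higher in 11. Directions were not counted over all opposite-strand pairs. For the untreated lines, the count was 9 without untreated parental replicate 2, 8 and 7 without untreated SDS22-degron replicates 1 and 2, and 9 with no precision weights.

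**Figure D3:**
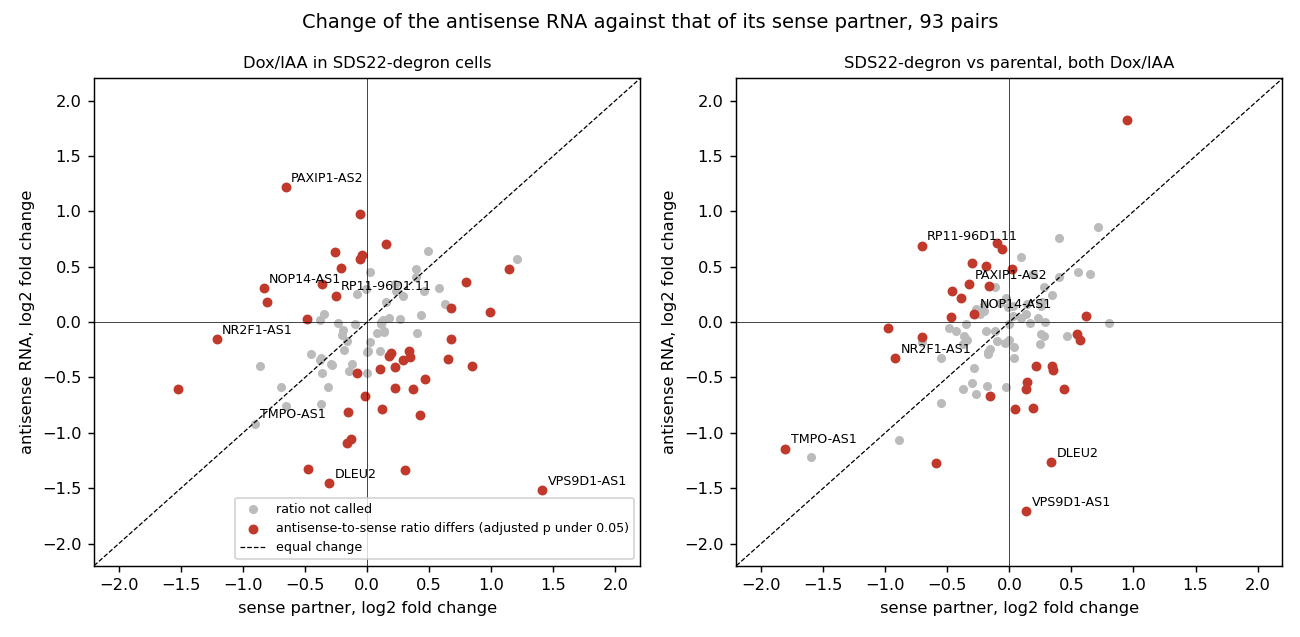
Log2 fold change of the antisense RNA (y axis) against that of its sense partner (x axis) for 93 pairs, on Dox/IAA in SDS22-degron cells (left) and between the treated lines (right), with pairs in red where the ratio differed (adjusted p under 0.05, limma) and a dashed line of equal change. VPS9D1-AS1 is far below the line, at -1.52 against 1.41 on the left, and PAXIP1-AS2 far above it, at 1.22 against -0.66.

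The VPS9D1-AS1 pair had the smallest p between the treated lines (log2 difference of the ratio -1.82 ± 0.19, SE, adjusted p = 1.2e-07, limma) and in the interaction (-1.67 ± 0.30, adjusted p = 0.00065, limma). Of the counts on both genes, the antisense RNA took 92.5% ± 1.55 in untreated and 83.8% ± 2.47 in treated parental cells, and 91.7% ± 1.54 in untreated and 59.4% ± 5.03 in treated SDS22-degron cells (SD, n = 3). VPS9D1 rose on Dox/IAA in both lines, by 1.41 in SDS22-degron and by 0.83 in parental cells, and the antisense RNA fell in both.

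RP11-96D1.11 and NFATC3, the gene of a calcineurin-controlled transcription factor, moved oppositely between the lines. The antisense RNA was at 7.35, 6.08 and 7 CPM in treated parental and at 11.2, 11.6 and 10.1 CPM in treated degron cells (log2 fold change 0.69), and NFATC3 was at 43.9 ± 1.73 against 26.9 ± 2.2 CPM (SD, n = 3; -0.71). The ratio differed by 1.40 ± 0.17 between the treated and by 1.12 ± 0.18 between the untreated lines (SE, both called by limma). Both genes lie on chromosome 16, all exon bases of RP11-96D1.11 lie inside opposite-strand exons, and it overlaps ESRP2 on its own strand. DLEU2 lost ground to DLEU1 between the treated lines (-1.53 ± 0.26), and PSMA3-AS1 gained on the proteasome gene PSMA3 (0.68 ± 0.12), as SVIL-AS1 did on the gene of the actin-binding protein supervillin (0.74 ± 0.13). DLEU2 also overlaps TRIM13 on the opposite strand, which had more counts than DLEU1. RP5-991G20.1 lost against ZFHX3 (-0.91 ± 0.20), and PAXIP1-AS2 gained on PAXIP1 in the interaction (1.42 ± 0.34), both called by limma. The RP11-96D1.11 change between the untreated lines (0.52) was not called without untreated SDS22-degron replicate 1 (0.44).

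Pairs with both genes called are counted by direction. Between the treated lines, calls in opposite directions were SVIL-AS1, RP11-96D1.11 and SLC25A25-AS1 (antisense higher, sense lower) and AC091729.9 (antisense lower, sense higher), 4 of 93 pairs or 4.30%, with 6.69% among all opposite-strand pairs, while 12 pairs (12.9%, with 13.8%) were called in the same direction. The antisense call of SVIL-AS1 was lost without replicate 3 of either treated group (0.25 and 0.23), and that of SLC25A25-AS1 without treated parental replicate 1 (0.50) or treated SDS22-degron replicate 2 (0.28). On Dox/IAA in SDS22-degron cells 11 pairs were called in opposite directions (11.8%, with 11% among all such pairs) and 13 in the same (14%, with 14.4%). Among the 11, NOP14-AS1 went from 15.1 ± 0.980 to 18.6 ± 0.685 CPM (SD, n = 3; log2 fold change 0.30, adjusted p = 0.0357, edgeR) as NOP14, the gene of a factor of small ribosomal subunit assembly, fell from 176 ± 7.65 to 98.7 ± 3.55 CPM (-0.83). The call of NOP14-AS1 was lost without untreated SDS22-degron replicate 1 or 3 or any treated SDS22-degron replicate (0.26 to 0.31), but its ratio to NOP14 was called (1.14 ± 0.13). On Dox/IAA in parental cells 2 pairs, VPS9D1-AS1 and AGAP2-AS1, were called in opposite directions (2.15%, with 3.42%) and 3 in the same (3.23%, with 6%). The call of AGAP2-AS1 was lost there without treated parental replicate 2 (-0.28), and in SDS22-degron cells, where it is one of the 11, by DESeq2 (-0.31), with no filter (-0.32), and without untreated replicate 2 (-0.28) or 3 (-0.31) or treated replicate 1 (-0.31) or 3 (-0.32). Between the untreated lines 3 pairs (RP11-96D1.11, SBF2-AS1 and AC009948.5) were called in opposite directions (3.23%, with 1.67%) and 6 in the same (6.45%, with 7.09%). The call of AC009948.5 (-0.50) was lost by DESeq2 and without untreated parental replicate 1 (-0.46) or 2 (-0.40) or untreated SDS22-degron replicate 2 (-0.45) or 3 (-0.42), and that of RP11-96D1.11 without untreated SDS22-degron replicate 1 (0.44). In the interaction 0 of 93 pairs were called in opposite directions by edgeR (4 at an unadjusted p under 0.05), with 0.836% among all such pairs, and 4 in the same (4.30%, with 1.49%). NOP14-AS1, SLC25A25-AS1, AC091729.9, AC009948.5 and AGAP2-AS1 were named after their values were seen.

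Head-to-head pairs also changed unequally. TMPO was at 288 ± 42.5 CPM in untreated and 258 ± 33.9 CPM in treated parental cells, and at 138 ± 2.25 and 73.9 ± 5.32 CPM in untreated and treated SDS22-degron cells (SD, n = 3). TMPO-AS1 was at 5.75 ± 1.28 and 5.61 ± 0.350 CPM in untreated parental and SDS22-degron cells, so the ratio differed between the untreated lines (1.04 ± 0.17, SE, adjusted p = 0.00021, limma). Between the treated lines the ratio of TMPO-AS1 differed by 0.68 ± 0.20, and this call was lost without treated SDS22-degron replicate 2 (0.59). NR2F1-AS1 made up 9.57% ± 0.941 of the counts on its pair in untreated parental and 20.5% ± 0.423 in treated SDS22-degron cells (SD, n = 3), since NR2F1 fell by more. These groups differ in both the line and Dox/IAA, and setting them side by side is none of the 5 comparisons. The change of NR2F1-AS1 itself between the treated lines was -0.33 (adjusted p = 0.116, edgeR). It was called with replicate as a block (-0.33) and without treated SDS22-degron replicate 3 (-0.55). Its ratio between the treated lines (0.55 ± 0.16) was not called without treated parental replicate 3 (0.38).

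Over the 12 libraries, log2 CPM of the antisense RNA and of its partner had a median Pearson r of 0.27 over the 93 pairs, with 62 above 0, and of 0.14 over all 2752 opposite-strand pairs, with 1636 above 0. The libraries of one group share its condition, and with group means removed the medians were 0.09 and 0.05. By arrangement the median was 0.30 for 38 head-to-head pairs (29 above 0), 0.36 for 25 RNAs inside their sense gene (19 above 0) and -0.13 for 28 tail-to-tail pairs (12 above 0). Over all opposite-strand pairs it was 0.27 for 1001 head-to-head and 0.12 for 892 tail-to-tail pairs, with 66.4% and 59.2% above 0, and 0.04 for 859 pairs with one gene inside the other, with 51.6% above 0. The most positive were NR2F1-AS1 with NR2F1 (0.90) and AC005329.7 with NDUFS7 (0.89), and the most negative was RP11-96D1.11 with NFATC3 (-0.95). Most or all exon bases of AC005329.7 and RP11-96D1.11 lie inside opposite-strand exons, as given above. These values are descriptions, in which pairs share libraries and their depth.

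**Figure D4:**
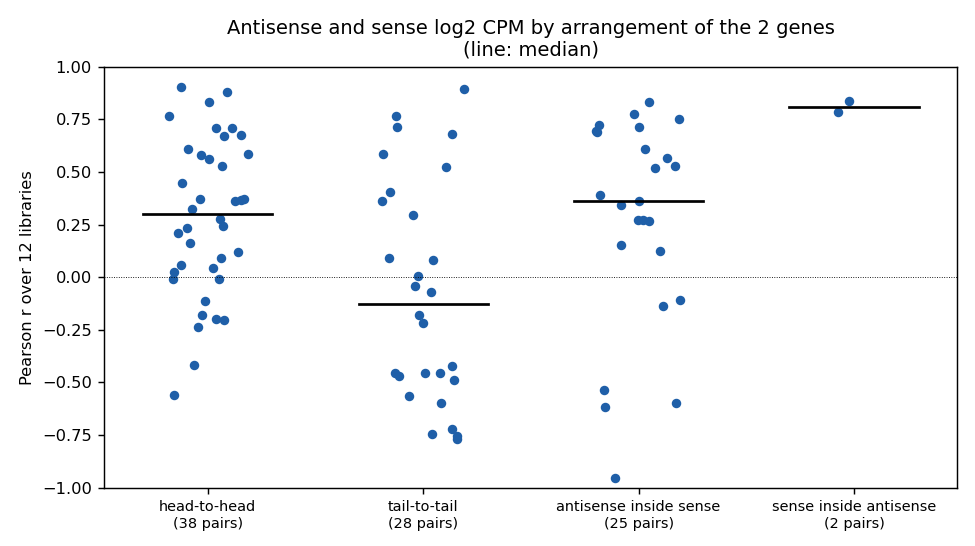
Pearson r (y axis) between log2 CPM of an antisense RNA and of its sense partner over 12 libraries, for each of 93 pairs (points) by arrangement (x axis), with the median as a line. Head-to-head pairs have a median of 0.30 and tail-to-tail pairs of -0.13, and every arrangement with more than 2 pairs holds values on both sides of 0.

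Of the antisense RNAs listed from general knowledge, FGD5-AS1, TMPO-AS1, GABPB1-AS1, SBF2-AS1, KCNQ1OT1, TUG1, THAP9-AS1, LOXL1-AS1 and DLEU2 were among the 131. KCNQ1OT1, an unspliced RNA of 91667 bases by the table, had the fewest counts of them and was the lowest of the 131 per kilobase at 0.035 CPM per kb. It was at 4.24 ± 0.196 CPM in untreated and 3.19 ± 1.13 CPM in treated degron cells (SD, n = 3; log2 fold change -0.40, adjusted p = 0.171, edgeR), while the channel gene KCNQ1 around it rose from 10.7 ± 0.105 to 19.2 ± 1.52 CPM (0.85), and the ratio differed (-1.30 ± 0.27, adjusted p = 0.0003, limma). LOXL1-AS1 passed the test in none of the 5 comparisons, with log2 fold changes between -0.34 and 0.38. It was called between the untreated lines with replicate as a block (-0.34), by the likelihood ratio test (-0.34) and without untreated parental replicate 1 (-0.43) or untreated SDS22-degron replicate 3 (-0.45), and on Dox/IAA in SDS22-degron cells with scaling by library size (0.32) and without untreated SDS22-degron replicate 3 (0.40). THAP9-AS1 was called on Dox/IAA in parental cells (-0.49). Between the untreated lines it was at -0.33 (adjusted p = 0.0533) and was called with replicate as a block (-0.31), by the likelihood ratio test (-0.33), with no filter (-0.34) and without untreated parental replicate 3 (-0.47) or treated parental replicate 2 (-0.32). Its interaction of 0.40 was called with no filter and without untreated parental replicate 3 (0.54). HCG18, from the major histocompatibility region, held between -0.06 and 0.04 in all 5.

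Since many antisense RNAs are substrates of nuclear RNA turnover, 32 genes of the exosome, its adaptors, cap binding, termination and double-strand processing were read from the same fit. Between the treated lines 19 were lower and 1 higher, where 23.1% of all genes were lower and 21.8% higher, and their median log2 fold change was -0.28 (all genes -0.01). On Dox/IAA in SDS22-degron cells 21 were lower and 2 higher (25.5% and 26.0% of all genes), with a median of -0.33. Between the untreated lines 8 were lower and 1 higher (15% and 13.2% of all genes), on Dox/IAA in parental cells 12 were lower and 0 higher by edgeR (15.7% and 15.9%), and in the interaction 9 were lower and 0 higher (8.35% and 6.03%). At an unadjusted p under 0.05, 2 were higher in parental cells and 0 in the interaction. The nuclear exosome nuclease EXOSC10 was lowest between the treated lines (-0.86), with EXOSC9 at -0.70, EXOSC2, like EXOSC9 a core subunit, at -0.66, the cap-bound adaptor SRRT at -0.58 and the helicase DHX9 at -0.48. NRDE2, an inhibitor of the exosome helicase MTREX, was higher (0.47), and the nuclease DIS3 was at 0.15 (adjusted p = 0.0540). The part of these genes in the levels of the 131 antisense RNAs was not tested.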

How the data were processed

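Poly-A selected, stranded RNA of 12 libraries (4 groups of 3, grouped by their labels) was sequenced as single reads. The authors deposited raw read counts per gene without normalization, and the same deposited table gives GC percent, length and position of each gene as the authors took them from their annotation. Per the labels' processing notes, cutadapt 1.15, Bowtie2 2.3.3.1, STAR 2.5.2b, SAMtools 1.5 and featureCounts 1.5.3 were used, with GRCh38. The strand setting of the counting and the annotation release are not given in the sources used here. The number of columns not mapped to a sample was 0.

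Counts were normalized by TMM, filtered by filterByExpr (minimum count 10 by group, 16657 genes left) and modelled as 4 group means in edgeR 4.0.16 (R 4.3.3), with the quasi-likelihood test and Benjamini-Hochberg adjustment over all tested genes. Pairs were tested with limma 3.58.1 on the per-library difference of the log2 CPM given by voom, with voom weights of both genes combined, over 2752 pairs. A prior count of 2 was used for the log2 CPM of the correlations and of the fit with no precision weights. Both procedures were tested on simulated data. The members, lists and named genes were chosen with earlier results of these data known. Named were the 8 RNAs with most counts, the 6 called with the smallest p in each comparison, the 6 pairs whose ratio had the smallest p in the comparison of the treated lines and likewise in the interaction, the 3 rows on each side of the threshold, and a list of known antisense RNAs. Others are said to be named after their values were seen, or belong to a group described with them, such as RNAs without an opposite-strand row.

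Alternatives were edgeR's likelihood ratio test, DESeq2 1.42.0, scaling by library size, no filter, a fit of the compared groups alone, a replicate block, leaving out each library in turn, the study's cut-off (p under 0.05 before adjustment with log2 fold changes past 1 in size), no precision weights, and the partner with most counts. Libraries with the same replicate number deviated together between the treated lines (r of deviations from group means 0.10, 0.13 and 0.14) and in parental cells (0.12, 0.25 and 0.13). Between the untreated lines r was 0.06, 0.10 and 0.12. The main fits had no term for the replicate number and so left such pairing out. It entered only through the replicate block among the alternatives. Gene positions are those of the table. Exon overlap used the GENCODE v44 annotation at hand, lifted to GRCh37, by gene identifier and within that build, and sequences are from RefSeq on GRCh38.p14. The SE given with edgeR values was derived as the size of the log2 fold change divided by the square root of the F statistic. At this depth, log2 fold changes between the treated lines had a median SE of 0.168 for these RNAs and of 0.110 for all genes. The partner of 1 of these RNAs is not reported here.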

Additional observations from a re-analysis of the deposited data

Results flagged for a closer look

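Values are given here where the effect of Dox/IAA differed between SDS22-degron and parental cells by the interaction test (edgeR, adjusted p under 0.05 over all genes). The interaction on the log2 scale was more negative in SDS22-degron cells for RP11-431J24.2 (-1.44), DLEU2 (-1.28), VPS9D1-AS1 (-1.11), TMPO-AS1 (-1.10), TMEM161B-AS1 (-0.95), RP11-644F5.11 (-0.94), RP4-694A7.2 (-0.90), RP4-591C20.9 (-0.78), AC005329.7 (-0.75), AC093673.5 (-0.73), ASB16-AS1 (-0.71), CTBP1-AS2 (-0.60) and RP11-284F21.10 (-0.39). It was more positive for RP11-290L1.3 (1.05), FAM201A (0.96), RP11-115D19.1 (0.77) and HOXA10-AS (0.59).

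Some of these calls were lost in fits that left out 1 library, which also have fewer libraries to test with. The call was lost without treated SDS22-degron replicate 3 for HOXA10-AS (0.47), without untreated SDS22-degron replicate 1 for RP11-284F21.10 (-0.35), and without treated parental replicate 2 (-1.22) or untreated SDS22-degron replicate 3 (-1.19) for RP11-431J24.2. For RP4-591C20.9 it was lost without untreated parental replicate 3 (-0.67), treated parental replicate 2 (-0.65) or untreated SDS22-degron replicate 3 (-0.68). RP11-115D19.1, AC005329.7, TMEM161B-AS1, RP11-290L1.3, RP4-694A7.2 and AC093673.5 each lost the call in 5 or more of the fits that left out 1 library.

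The log2 ratio of antisense to sense RNA differed in the same way (limma, adjusted p under 0.05 over all pairs) for VPS9D1-AS1 against VPS9D1 (-1.67), DLEU2 against DLEU1 (-1.38), RP11-644F5.11 against CD63 (-1.14), TMEM161B-AS1 against TMEM161B (-1.06), GATA2-AS1 against GATA2 (-0.77), PITPNA-AS1 against PITPNA (-0.73), AP003068.23 against CAPN1 (-0.67) and CTBP1-AS2 against CTBP1 (-0.60). It was more positive for PAXIP1-AS2 against PAXIP1 (1.42), DHRS4-AS1 against DHRS4L2 (0.82) and PSMA3-AS1 against PSMA3 (0.68). DHRS4L2 has near-identical copies, so counts on it are uncertain. DHRS4-AS1 also overlaps DHRS4 on the opposite strand, which had more counts than DHRS4L2. Groups of 3 libraries were not tested for single deviating libraries. Without 1 library the ratio call was lost for CTBP1-AS2 (untreated SDS22-degron replicate 2, -0.53), DHRS4-AS1 (untreated parental replicate 3, 0.74), GATA2-AS1 (untreated SDS22-degron replicate 3, -0.66) and TMEM161B-AS1 (untreated parental replicate 1, -0.90), and for AP003068.23 and PITPNA-AS1 in 9 of the fits that left out 1 library each.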

How the results depend on the processing

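With the replicate number as a block, the RNAs higher and lower were 20 and 32 between the treated lines, 21 and 20 between the untreated lines, 27 and 40 on Dox/IAA in SDS22-degron cells, 14 and 18 in parental cells and 6 and 13 in the interaction, with 33, 15, 43, 17 and 13 unequal pairs. No count of calls moved by over 1.5 times under the block. Between the untreated lines, libraries with the same number had r of 0.06, 0.10 and 0.12, and those with different numbers had negative r throughout. On Dox/IAA in SDS22-degron cells r was 0.03, -0.01 and 0.10, and there the numbers did not pair the libraries by their deviations.

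Under the study's cut-off the counts higher and lower were 1 and 7, 2 and 1, 2 and 10, 0 and 1, and 1 and 4, in the same order of comparisons. Interactions more positive in SDS22-degron cells numbered 7 by the likelihood ratio test and 9 with no filter, against 4, and unequal pairs between the untreated lines 9 with no precision weights, against 14. Leaving out 1 library gave 13 to 20 higher and 24 to 30 lower between the treated lines, 13 to 22 and 9 to 17 between the untreated lines, 16 to 27 and 28 to 42 on Dox/IAA in SDS22-degron cells, 6 to 12 and 12 to 18 in parental cells and 2 to 6 and 7 to 14 in the interaction. Unequal pairs then numbered 23 to 33, 7 to 16, 36 to 43, 11 to 19 and 8 to 14.

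There were 550 single results on 66 RNAs and their pairs, called and not called alike. Of these, 406 had no change of call, in either sense, under every alternative run, and 0 called values changed sign. The share among called results alone is not given here. Depth limits these RNAs more than most genes, and small changes of faint RNAs were not detectable.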
